A study of Oncorhynchus mykiss with 6 samples.

Results

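Transcription factors that carry the output of the circadian clock moved in opposite directions in rainbow trout liver after heat stress. By the authors' symbols they are the PAR bZIP genes TEF, HLF and dbpb, their bZIP antagonist NFIL3, and the bHLH repressor gene bhlhe40. Members were all entries of the deposited ribosome profiling table whose symbol, ignoring case, was tef, hlf, dbpb, nfil3 or bhlhe40, and these were 8 of its 1213 entries. Bhlhe40 had 3 entries, HLF had 2, and TEF, dbpb and NFIL3 had 1 each. The footprints of all 3 bhlhe40 entries, both HLF entries and dbpb fell, and those of TEF and NFIL3 rose. Whether the rises of TEF and NFIL3 passed the test depended on how library depth was set (below). The rise of NFIL3 was also close to the median of all tested entries.

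Liver footprints, the mRNA fragments covered by a ribosome and so protected from nuclease, came from 3 control libraries and 3 libraries of fish liver held at 24 °C for 8 h (heat stress). For the control group the sample sources and the design text state 18 °C and the treatment protocol 20 °C. Strain, age, light schedule and time of sampling are not stated in the labels, which give the molecule as nuclear RNA. Nor do they say whether each library is a different fish, and the p-values below then rest on a spread between libraries that may be technical. Whether both groups were sampled at the same time of day is unknown. The part of sampling time in the results below was not tested. Footprints combine mRNA amount with its translation, and in whole liver fewer cells of a type and fewer footprints per cell cannot be told apart.

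In vertebrates the core clock is a loop in which CLOCK and BMAL1 activate their own repressors through E-box elements. PAR bZIP factors (named for a domain rich in proline and acidic residues) are outputs of this loop: they activate genes through a further element, the D-box, and in mouse liver they support genes of detoxification. NFIL3, also called E4BP4, is a repressor that binds the same D-box, so PAR bZIP factors and NFIL3 oppose each other. Bhlhe40, also called DEC1, binds E-boxes and represses CLOCK and BMAL1 activity.

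Every entry of the table had been selected by the authors on this same contrast (no listed FDR reaches 0.05 and no listed change is under 2-fold), so the tests below describe the entries and are not independent evidence that they changed. Relative library depth, recovered from counts and FPKM (footprints scaled to gene length and library depth), ranged down to 41.4% of that of control replicate 1, the deepest library. Listed footprints ranged from 362308 to 863769 per library. Of 13 hepatocyte markers 6 were matched by 10 entries, of which TFG (2 entries) and tfcp2l1 matched by the start of their symbol alone. Their summed level was 31429 to 32785 FPKM in control and 11180 to 17934 in heat stress, but the list did not move one way. Of the 10 entries 6 were called lower (alb1, apoa-i-1, apoa-i-2, rbp4, RBP4 and tfcp2l1) and 4 higher (fga, FGA and both TFG entries) by the test described below, so the sum follows its most abundant entries. The markers alb and alb1 both matched the entry alb1. The entries fga and FGA had the same mean level and log2 fold change (1.455), so they are read as 1 measurement. With TFG and tfcp2l1 set aside, alb1, apoa-i-1, apoa-i-2, rbp4 and RBP4 were lower, and only fga with its duplicate FGA was higher. Of 6 stellate markers col1a1b was listed (57.4 to 70.4 FPKM in control, 26.9 to 30 in heat stress), and of 4 biliary markers krt18 (52.4 to 58.5 and 136 to 171 FPKM). None of the 6 red blood cell, 9 immune, 6 endothelial or 5 pancreas markers was listed, which in a table of selected genes gives no level for them. The part of these marker shifts in the results below was not tested.

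Tested on the counts with limma-voom, which fits all 1152 entries with enough footprints, 6 of 8 members were lower and 2 were higher in heat stress at an adjusted p of 0.05. Over all tested entries 16.2% were lower and 71.3% higher. The members' median log2 fold change was -2.14, beside 1.66 over all tested entries. Members were chosen with earlier results of these data known, so these shares and medians describe the members and are no test of them as a set. Member counts and this median take HLF b and dbpb as 2 entries, although their footprint counts were equal in 4 of 6 libraries (below). The groups did not overlap in FPKM for any of the 8 members, as for 98.7% of all listed entries (23.2% lower and 75.5% higher), a share that the selection favours. In the authors' deposited table, too, 6 members were lower and 2 higher, among 289 lower and 924 higher entries (23.8% and 76.2%).

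**Figure D1:**
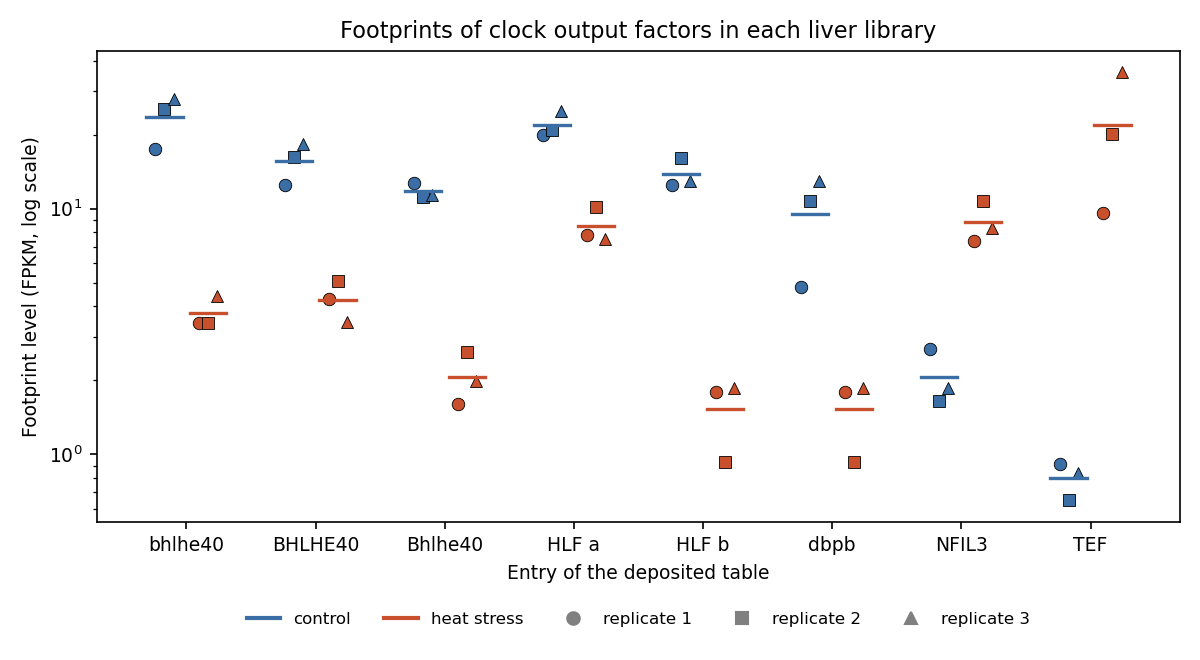
Footprint level (FPKM, log axis) of the 8 entries in each of the 6 libraries, with control in blue, heat stress in orange, a marker shape per replicate and a bar at each group mean. The 6 entries on the left lie lower in heat stress in every library, and NFIL3 and TEF lie higher, with TEF between 9.6 and 35.89 FPKM in heat stress.

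The repressor gene bhlhe40 is represented by 3 entries whose symbols differ in case alone, bhlhe40, Bhlhe40 and BHLHE40, each with an identifier cut to the same start. All 3 fell. The entry bhlhe40 was at 17.55, 25.38 and 27.85 FPKM in control replicates 1, 2 and 3 and at 3.41, 3.43 and 4.42 FPKM in heat stress replicates 1, 2 and 3. Every control library lay above every heat stress library, and the group mean was 6.29-fold higher in control. Its log2 fold change was -2.56 ± 0.32 (SE; limma-voom adjusted p = 0.00115).

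Bhlhe40 was at 12.72, 11.17 and 11.34 FPKM in control and at 1.61, 2.6 and 1.99 FPKM in heat stress. This was the tightest member in control, where its highest library exceeded its lowest 1.14-fold. Its mean was 5.68-fold higher in control, with a log2 fold change of -2.50 ± 0.33 (SE; limma-voom adjusted p = 0.00186). BHLHE40 was at 12.42, 16.19 and 18.23 FPKM in control and at 4.28, 5.06 and 3.45 FPKM in heat stress. Again no library of one group reached the other, and the mean was 3.66-fold higher in control (log2 fold change -1.89 ± 0.30, limma-voom adjusted p = 0.00542).

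Summed over the 3 entries, bhlhe40 footprints were at 42.7, 52.7 and 57.4 FPKM in control and at 9.3, 11.1 and 9.86 FPKM in heat stress. The heat stress libraries thus lay within a narrow band well below control (51 ± 7.53 against 10.1 ± 0.916 FPKM, SD, n = 3 per group; exact two-sided permutation p = 0.1, and a design of 3 against 3 cannot give less). The calls of all 3 entries held with each library left out in turn (limma-voom adjusted p up to 0.00837 for bhlhe40, 0.0164 for Bhlhe40 and 0.0357 for BHLHE40).

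Whether copies responded to the same degree was read from the ratio of their FPKM within each library, which does not depend on depth. The ratio of bhlhe40 to Bhlhe40 was 1.38, 2.27 and 2.46 in control and 2.12, 1.32 and 2.22 in heat stress, and the groups overlapped (log2 difference -0.10; exact permutation p = 0.5). BHLHE40 gained on both: the ratio of bhlhe40 to it was 1.41, 1.57 and 1.53 in control and 0.797, 0.678 and 1.28 in heat stress, without overlap (log2 difference -0.76; exact permutation p = 0.1). The ratio of Bhlhe40 to BHLHE40 was 1.02, 0.69 and 0.622 in control and 0.376, 0.514 and 0.577 in heat stress, again without overlap (log2 difference -0.66; exact permutation p = 0.1). Adjustment was over the 5 ratios between entries computed here: those among the bhlhe40 entries, HLF b over HLF a, and dbpb over HLF a. The ratios to HLF a have the same heat stress values, so the 5 are not separate tests. The p-values of both ratios to BHLHE40 became 0.17, so the difference between copies did not pass, nor could it with 3 libraries against 3.

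HLF, the hepatic leukaemia factor, had 2 entries, called HLF a for the one with the higher control level and HLF b for the other. HLF a was at 19.85, 20.92 and 24.86 FPKM in control and at 7.79, 10.14 and 7.49 FPKM in heat stress. It was the least reduced of the 6 falling members, 2.58-fold higher in control, with no overlap between groups (log2 fold change -1.39 ± 0.25, SE; limma-voom adjusted p = 0.0116). Leaving out control replicate 3 or heat stress replicate 3 ended the call (limma-voom adjusted p = 0.0574 and 0.0691).

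HLF b was the most reduced member by its estimate, although its counts differed from those of dbpb in control replicates 1 and 2 alone (below). HLF b was at 12.44, 16.1 and 12.89 FPKM in control and at 1.8, 0.93 and 1.87 FPKM in heat stress, 9.01-fold higher in control. Its footprints numbered 102, 101 and 69 in control and 11, 3 and 12 in heat stress, a heat stress total of 26 (95% exact Poisson interval 17 to 38.1, which covers counting error only). The log2 fold change was -3.09 ± 0.40 (SE; limma-voom adjusted p = 0.0015), and the call held with each library left out in turn (adjusted p up to 0.0153). The ratio of HLF b to HLF a was 0.627, 0.77 and 0.519 in control and 0.231, 0.0917 and 0.25 in heat stress. Every heat stress ratio lay below every control ratio, by 3.62-fold in the mean (log2 difference -1.85; exact permutation p = 0.1, 0.17 adjusted over the 5 ratios).

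The entry dbpb is named for the D-site albumin promoter binding protein, the third type of PAR bZIP factor. It was at 4.78, 10.73 and 12.89 FPKM in control and at 1.8, 0.93 and 1.87 FPKM in heat stress. Control replicate 1 was low, at less than the other two, yet still above every heat stress library. The mean was 6.17-fold higher in control, and the log2 fold change of -2.39 ± 0.57 (SE) only just passed (limma-voom adjusted p = 0.0488). The call did not survive the loss of any library except control replicate 1 (highest limma-voom adjusted p = 0.261). Without control replicate 1 the log2 fold change was -2.87 ± 0.41 (limma-voom adjusted p = 0.00918). The ratio of dbpb to HLF a was 0.241, 0.513 and 0.519 in control and 0.231, 0.0917 and 0.25 in heat stress, with overlap (log2 difference -1.20; exact permutation p = 0.2, 0.25 adjusted over the 5 ratios).

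HLF b and dbpb were not measured independently of each other. Their footprint counts were equal in 4 of 6 libraries, at 69 in control replicate 3 and at 11, 3 and 12 in the heat stress libraries, and their FPKM there were equal to the last digit printed. In control replicate 1 HLF b had 102 footprints and dbpb 39, and in control replicate 2 they had 101 and 67. The gene lengths implied by count, FPKM and depth were 92.5% of that of the entry bhlhe40 for HLF b and 92.1% for dbpb. HLF a, by contrast, had an implied length of 75% and shared no count with either. The 2 entries are therefore read here as 1 measurement in heat stress, and the identifiers, cut to the same start, do not tell whether they are separate genes. How the authors assigned footprints that map to both is not stated in the labels or the file header.

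**Figure D2:**
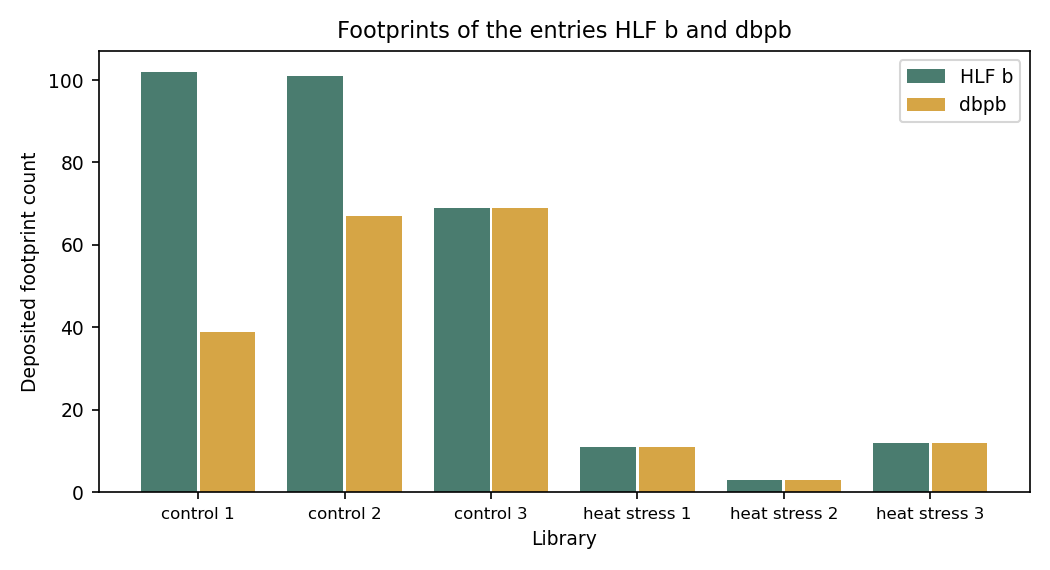
Deposited footprint counts of HLF b and dbpb in each library, as bars from 0. The pairs are equal in control replicate 3 and in all 3 heat stress libraries, and differ by 63 footprints in control replicate 1 and by 34 in control replicate 2.

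TEF, the thyrotroph embryonic factor, went the other way from its PAR bZIP relatives. Its footprints numbered 6, 3 and 3 in control replicates 1, 2 and 3 and 45, 54 and 191 in heat stress replicates 1, 2 and 3. As FPKM these were 0.91, 0.65 and 0.84 in control and 9.6, 20.14 and 35.89 in heat stress. The lowest heat stress library lay far above the highest control library, but the heat stress libraries differed 3.74-fold among themselves, the widest spread of any member in heat stress. The mean was 27.3-fold higher in heat stress. The control total of 12 footprints has a 95% exact Poisson interval of 6.2 to 21, so the size of the rise is known less well than its direction. The log2 fold change was 4.52 ± 0.76 (SE; 95% confidence interval 2.83 to 6.21; limma-voom adjusted p = 0.00737). It was 3.99 ± 0.62 without heat stress replicate 3 (limma-voom adjusted p = 0.00912) and 5.05 ± 0.56 without heat stress replicate 1 (limma-voom adjusted p = 0.000703). The highest adjusted p with one library left out was 0.0455, without control replicate 1. TEF passed the low-count filter through its heat stress libraries alone, since its 6, 3 and 3 control footprints lie under the 10 required. These tests thus describe the rise and give no support for it.

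NFIL3, the D-box repressor, rose as well but less. It was at 2.69, 1.65 and 1.86 FPKM in control and at 7.35, 10.78 and 8.31 FPKM in heat stress. No library of one group reached the other, and the mean was 4.26-fold higher in heat stress (log2 fold change 2.03 ± 0.33, SE; limma-voom adjusted p = 0.00588). The call held with each library left out in turn (limma-voom adjusted p up to 0.0315). This rise was only 0.37 above the median log2 fold change of all tested entries, so NFIL3 moved much like the typical entry of this table. Its identifier starts with 118, whereas the gene named nfil3 in the RefSeq annotation (assembly USDA_OmykA_1.1) has an identifier that starts with 110, so the entry is not that gene if both use the same numbering. That annotation names 0 genes tef or hlf, and 1 gene bhlhe40 against 3 entries here. The names of those entries thus rest on the authors' symbols.

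Where depth is set matters for the rising members. With TMM factors over the listed entries, which take most of them as unchanged, the median log2 fold change of all entries shifted by -1.48, and calls were 92 higher and 266 lower (7.99% and 23.1% of those tested) in place of 821 and 187. The split was 88 higher and 266 lower (7.64% and 23.1%) by median of ratios, and library sizes from listed footprints gave 207 higher and 262 lower. The shift of the median was -1.53 by median of ratios and -0.93 with listed footprints. Each of these scalings thus moves an entry that is already lower further down. All 6 falling members stayed lower and passed under each, with log2 fold changes from -2.86 for HLF a to -4.58 for HLF b under TMM. Given the direction of the shift, this is no test of their fall. TEF kept a positive log2 fold change of 3.06 ± 0.77 under TMM but did not pass (limma-voom adjusted p = 0.193). NFIL3 had 0.56 ± 0.29 under TMM and 1.11 ± 0.31 with listed footprints, and did not pass either (limma-voom adjusted p = 1 and 0.23).

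**Figure D3:**
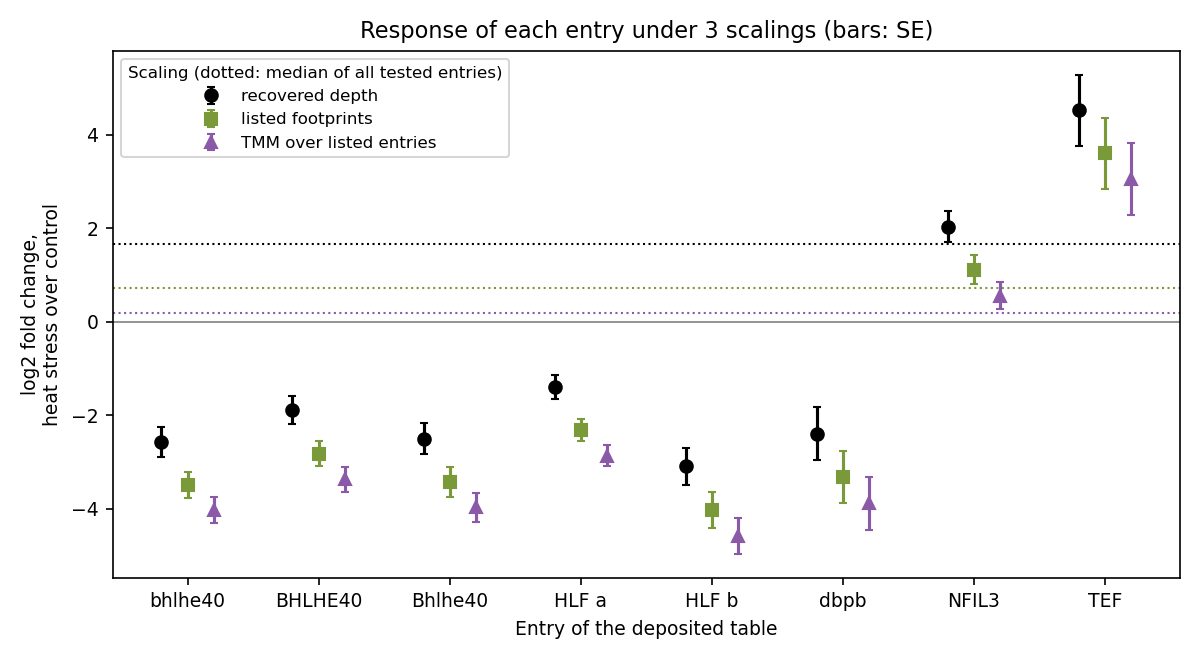
Log2 fold change (heat stress over control, limma-voom) of the 8 entries under 3 scalings, with SE bars and, dotted, the median of all tested entries under each scaling (1.66 by recovered depth, 0.73 with listed footprints, 0.18 under TMM). The 6 falling entries lie below 0 under every scaling, TEF lies above every median, and NFIL3 lies close to the median each time.

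Among the 1152 tested entries ordered by log2 fold change, HLF b took place 24 from the lowest, bhlhe40 place 44, Bhlhe40 place 45, dbpb place 50, BHLHE40 place 82 and HLF a place 168. TEF took place 54 from the highest and NFIL3 place 402. Only 289 of the 1213 listed entries (23.8%) were lower in the authors' table, so every falling member had to stand in the low part of this order. Within that limit, HLF a stood further from the low end than the other falling members. NFIL3 stood further from the high end than TEF.

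**Figure D4:**
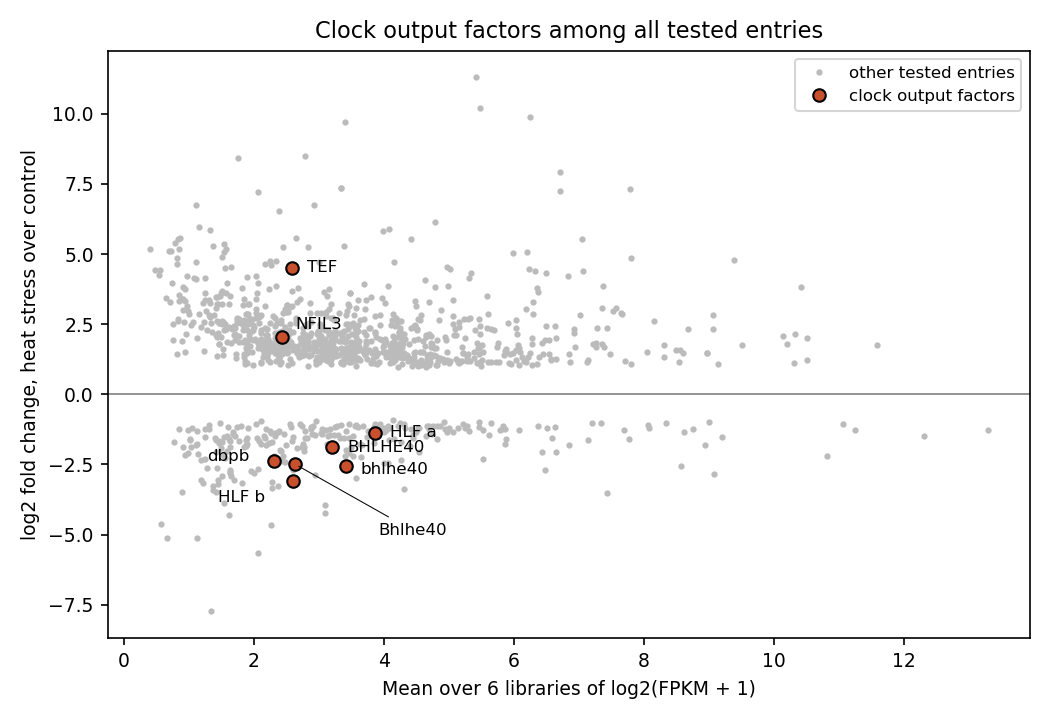
Log2 fold change against the mean of log2(FPKM + 1) over the 6 libraries for all 1152 tested entries (grey) and the 8 members (orange, named). The empty band around 0 comes from the authors' selection, and HLF b, at -3.09, and TEF, at 4.52, are the outermost members.

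TEF and NFIL3 had the lowest levels of the members in control and the highest means in heat stress, while the order of the 6 falling members shifted less. Per length, control liver held most footprints on bhlhe40 (23.6 ± 5.38 FPKM, SD, n = 3) and HLF a (21.9 ± 2.64), whose libraries overlapped. Below them came BHLHE40, HLF b, Bhlhe40 and dbpb, each overlapping its neighbour in that order. NFIL3 (2.07 ± 0.55) and TEF (0.8 ± 0.135) were lowest and stood apart from each other and from the rest. In heat stress TEF came first (21.9 ± 13.2 FPKM), followed by NFIL3 (8.81 ± 1.77) and HLF a (8.47 ± 1.45), with overlap between these neighbours. BHLHE40 (4.26 ± 0.805) and bhlhe40 (3.75 ± 0.577) overlapped each other below them, and Bhlhe40 (2.07 ± 0.499), HLF b and dbpb (1.53 ± 0.524 each) were lowest.

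With TEF higher and HLF and dbpb lower, the summed footprint level of the PAR bZIP entries overlapped between the groups. The sum was 38, 48.4 and 51.5 FPKM in control and 21, 32.1 and 47.1 FPKM in heat stress (46 ± 7.07 against 33.4 ± 13.1, SD, n = 3 per group; exact permutation p = 0.2). TEF made up 2.4%, 1.34% and 1.63% of it in control and 45.7%, 62.7% and 76.2% in heat stress, without overlap (exact permutation p = 0.1). HLF a, HLF b and dbpb together were at 37.1, 47.8 and 50.6 FPKM in control and at 11.4, 12 and 11.2 FPKM in heat stress. These sums hold the footprints common to HLF b and dbpb 2 times. Without HLF b, HLF a and dbpb together were at 24.6, 31.7 and 37.8 FPKM in control and at 9.59, 11.1 and 9.36 FPKM in heat stress (31.3 ± 6.57 against 10 ± 0.928, SD, n = 3 per group; exact permutation p = 0.1). The summed PAR bZIP level was then 32.1 ± 6.53 FPKM in the control libraries against 31.9 ± 13 FPKM under heat stress (exact permutation p = 0.9), and TEF made up 2.01% to 3.56% of it in control and 50% to 79.3% in heat stress. Thus HLF and dbpb were lower in every heat stress library and TEF was higher, with or without HLF b in the sum.

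**Figure D5:**
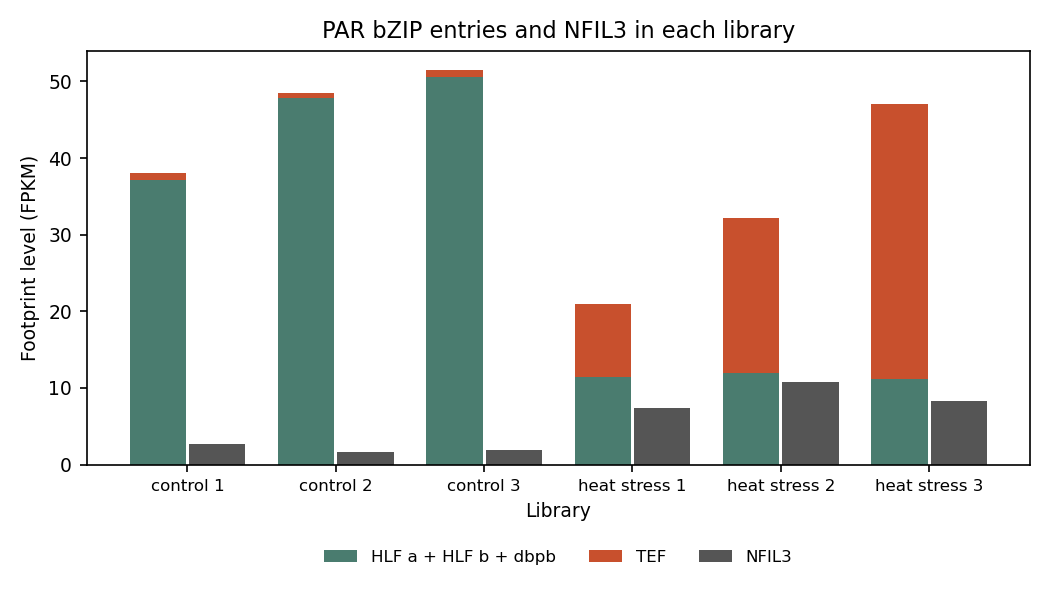
Footprint level (FPKM, bars from 0) of the PAR bZIP entries, stacked as HLF a, HLF b and dbpb together (green) and TEF (orange), beside NFIL3 (grey) in each library. The green part falls from between 37.1 and 50.6 FPKM in control to between 11.2 and 12 in heat stress, and TEF fills 45.7% to 76.2% of the stack there.

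The ratio of the D-box repressor to the D-box activators, as named by the authors' symbols (limits above), was followed within libraries. NFIL3 over the summed PAR bZIP level was 0.0708, 0.0341 and 0.0361 in control and 0.35, 0.335 and 0.176 in heat stress. All heat stress ratios lay above all control ratios, 6.19-fold in the mean (log2 difference 2.63; exact two-sided permutation p = 0.1). Against HLF and dbpb alone, without TEF, NFIL3 went from 0.0726, 0.0346 and 0.0367 to 0.645, 0.898 and 0.74 (log2 difference 4.06; exact permutation p = 0.1). With HLF b left out as well, this ratio went from 0.109, 0.0521 and 0.0493 to 0.766, 0.974 and 0.888 (log2 difference 3.74; exact permutation p = 0.1). Scaled to gene length (FPKM), the level of NFIL3 thus came near to that of HLF and dbpb together in heat stress. The summed bhlhe40 level over NFIL3 was 15.9, 32 and 30.9 in control and 1.27, 1.03 and 1.19 in heat stress, so bhlhe40 and NFIL3 went from far apart to almost equal footprint levels (log2 difference -4.44; exact permutation p = 0.1). Since the numerators and denominators were selected for their change, these ratios are a description. The log2 fold change of NFIL3 was only 0.37 above the median of all tested entries. A typical listed entry in its place would thus give shifts of similar size.

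Beyond the members, 9 entries matched a list of other clock and clock-linked genes. Of these, 6 were tested, 2 rose, 1 fell and 3 did not pass, with a median log2 fold change of -1.23. Over all tested entries 71.3% were higher and 16.2% lower, with a median of 1.66. The clock list, too, was chosen with earlier results of these data known, so this comparison is a description. Without USP24, which matched by the start of its symbol alone, the median of the remaining 5 was -1.22, with the same 2 entries higher and 1 lower. The casein kinase 1 delta gene csnk1db, whose mammalian counterpart phosphorylates PER proteins, fell from 21.7 ± 3.33 to 9.36 ± 2.06 FPKM (SD, n = 3; log2 fold change -1.25 ± 0.26, limma-voom adjusted p = 0.0224). That call was lost without any library except heat stress replicate 1 (highest limma-voom adjusted p = 0.14).

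Both entries of CREM, a bZIP factor responsive to cAMP, rose by recovered depth. CREM a was at 4.56, 5.16 and 6.51 FPKM in control and at 21.56, 15.83 and 13.03 FPKM in heat stress (log2 fold change 1.53 ± 0.30, SE; limma-voom adjusted p = 0.0178). CREM b was at 2.55, 1.67 and 3 FPKM and at 11.51, 18.8 and 13 FPKM (1.85 ± 0.38; limma-voom adjusted p = 0.0215). Their values did not overlap between groups, but under TMM the log2 fold changes were 0.04 and 0.39, and by median of ratios that of CREM a turned to -0.02 (limma-voom adjusted p = 1 in each case). The CREM b call was lost without any library except heat stress replicate 1, and the CREM a call without any control library (limma-voom adjusted p up to 0.0903 and 0.0986). For CREM a and CREM b, counts and FPKM disagreed by up to 10.17 and 8.19 footprints, against at most 0.68 for any member: CREM b was 6-fold higher by FPKM and 3.6-fold by counts.

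The period gene per1b, a core clock repressor, was at 1.68, 1.92 and 2.67 FPKM in control and at 0.71, 1 and 0.84 FPKM in heat stress (log2 fold change -1.22 ± 0.35; limma-voom adjusted p = 0.139). NR1D2, the nuclear receptor REV-ERB beta that represses BMAL1 transcription in mammals, was at 2.26, 3.29 and 4.59 FPKM and at 1.17, 1.34 and 0.88 FPKM (log2 fold change -1.48 ± 0.46; limma-voom adjusted p = 0.217). Both were lower in every heat stress library without passing by recovered depth. Both passed under TMM (limma-voom adjusted p = 0.0012 and 0.00488). That scaling shifted the median of all tested entries by -1.48 and so favours calls of lower, which makes these passes no added support. NR1D2 also passed on log2(FPKM + 1) (limma adjusted p = 0.0445) but not on log2(FPKM + 0.1) (limma adjusted p = 0.0854). The entry per1b passed on neither (limma adjusted p = 0.0849 and 0.165). USP24, a deubiquitinase gene that matched by the start of its symbol and is no clock gene, had a log2 fold change of -1.25 ± 0.37 (limma-voom adjusted p = 0.16; 0.00187 under TMM).

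The remaining 3 entries had too few footprints to be tested. Bhlhe41, the close relative of bhlhe40 also called DEC2, had 10, 8 and 12 footprints in the control libraries and 0 in all 3 heat stress libraries. Against a floor of 3 footprints over the heat stress group it was at least 8.08-fold lower, with the control total taken as observed. Counting error of that total, 30 footprints (95% exact Poisson interval 20.2 to 42.8), is not in this limit. CIPC, which in mammals represses CLOCK, had 6, 24 and 2 footprints in control and 0 in heat stress. It was at least 8.62-fold lower against the same floor, again with the control total taken as observed. That limit rests on control replicate 2, without which the 8 control footprints left give at least 3.15-fold. Ciart, a clock repressor also called CHRONO, had 4, 1 and 2 footprints in control and 9, 10 and 29 in heat stress, or 0.303 ± 0.11 and 2.59 ± 1.28 FPKM (SD, n = 3). The control total of 7 footprints for Ciart has a 95% exact Poisson interval of 2.81 to 14.4. With no filter on low counts these entries passed as well (limma-voom adjusted p = 0.00295 for Bhlhe41, 0.0473 for CIPC and 0.0246 for Ciart).

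By the authors' annotation of transcription factor families, the 5 members TEF, HLF a, HLF b, dbpb and NFIL3 belong to 34 bZIP entries of the table. Of these 34 the authors' deposited table gives 30 as higher in heat stress and 4 as lower, beside 76.2% and 23.8% of all entries. The 4 lower bZIP entries were HLF a, HLF b, dbpb and 1 entry without a symbol. A pair of atf4 entries had the same mean level and log2 fold change (1.853), and HLF b and dbpb shared counts. The 34 are thus not all separate measurements. Among 7 entries annotated as bHLH, 4 were lower, namely the 3 bhlhe40 entries and Bhlhe41.

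For the most abundant entry of each symbol, the other entries with the most similar profile were found by Pearson's r of log2(FPKM + 1) over the 6 libraries, among 1103 named entries. With 2 groups of 3 this r mainly reflects the difference between groups, and it is given as a description. Nearest to bhlhe40 were PPP1R1B (r = 0.9935), the muscarinic receptor gene CHRM2 (r = 0.9933) and Tp53inp2 (r = 0.9925). Near to HLF a were the phospholipase gene PLCE1 (r = 0.9879) and an entry whose symbol is cut after zfp36l2 (r = 0.9863). Nearest to dbpb were the receptor phosphatase gene ptprga (r = 0.9954), Cd276 (r = 0.9925) and the acyl-CoA synthetase gene ACSL1 (r = 0.9840), which shared its low control replicate 1: ACSL1 was at 2.79, 8.31 and 6.64 FPKM in control.

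Nearest to NFIL3 were the uridine-cytidine kinase gene uck1 (r = 0.9977), FBXO6 (r = 0.9975) and SEC24A, a gene of COPII vesicles (r = 0.9973). FBXO6 was at or near the floor in control, at 0.38, 0 and 0 FPKM. Nearest to TEF were ZBTB21 (r = 0.9973), the bZIP factor gene CEBPB (r = 0.9972) and FKBP5, an Hsp90 co-chaperone gene known in mammals as a target of the glucocorticoid receptor (r = 0.9963). In these 3 genes, as in TEF, heat stress replicate 1 was lowest and replicate 3 highest: CEBPB was at 99.03, 136.65 and 163.62 FPKM and FKBP5 at 90.23, 110.83 and 125.9 FPKM. The control libraries of CEBPB and FKBP5 were close together, at 51.32, 53.97 and 52.35 FPKM for CEBPB and at 47.11, 46.81 and 51.18 FPKM for FKBP5. ZBTB21 was near the floor in control, at 0.11, 0.18 and 0.14 FPKM.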

How the data were processed

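The authors deposited 1 fixed-width table (8 characters per cell) with footprint counts and FPKM per library, group mean FPKM, log2 fold change, p-value and FDR, per the file headers. Per the submitters' processing notes, Bowtie2 and edgeR were used, but neither is tied to a step. Genome build, annotation and counter are not stated. Identifiers are cut to 8 characters, so no position is given. Counts are whole numbers, but those of the members differ by up to 0.68 footprints from the values their FPKM imply.

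Relative depth was the median ratio of count to FPKM over 94 entries with at least 200 footprints and 10 FPKM in every library (SD at most 1.02%). With these depths as library sizes, limma-voom (limma 3.58.1, R 4.3.3) was fitted to the 1152 entries that reached 10 footprints (scaled for depth) in 3 libraries and a total of 15. Benjamini-Hochberg adjustment was over about 29300 genes, the number tested by the authors as estimated from their FDR, rank and p-value. The fit was also run on simulated counts in which most entries were unchanged. This table holds selected entries, so that run does not cover the selection or the choice of scaling. Ratios were taken within libraries from FPKM and tested by exact permutation (Python 3.11.15, scipy 1.17.1). Confidence intervals of log2 fold changes are those of limma, at 95%.

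Members, the clock list and the markers were chosen with earlier results of these data known. Every member and every match of the clock list is described, with the 3 entries of most similar profile per member symbol. One of these entries is not reported here. Alternatives were TMM, median of ratios, listed footprints as library size, no filter, limma on log2(FPKM + 1) or log2(FPKM + 0.1), each library left out, and the replicate number as a block. Same-numbered libraries did not deviate together, which cannot exclude that they were paired. Counts of replicates differed by far more than sampling noise (chi-square over its degrees of freedom was 14.7 to 33.2), so no library was a copy.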

Additional observations from a re-analysis of the deposited data

How the results depend on the processing

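No member changed its direction under any alternative, and 92 of 104 member results kept their side of the threshold. HLF b and dbpb, with equal counts in 4 of 6 libraries, enter the member counts here as 2 entries. The other 12 are losses of TEF (TMM and median of ratios), NFIL3 (these and listed footprints), HLF a (2 left-out libraries) and dbpb (5 left-out libraries), described with their values above. Members called higher were 2 by recovered depth, 0 under TMM, 0 under median of ratios and 1 with listed footprints. Members called lower were 6 under every scaling, without the filter and on log2 FPKM, and 4 to 6 with a library left out. TMM, median of ratios and listed footprints shift log2 fold changes down, so they do not test the falling members. Over all entries, calls of higher were 92 under TMM, 88 under median of ratios and 207 with listed footprints in place of 821, and 446 to 833 with a library left out. Calls of lower ranged from 66 to 139 with a library left out, in place of 187. The log2 difference of NFIL3 over summed PAR bZIP was 2.44 to 2.97 with a library left out, and 2.18 without HLF b. For this ratio the alternative with the most abundant entries also leaves out HLF b alone, so it is the same calculation. It was 4.06 without TEF and 3.74 without TEF and HLF b, alternatives chosen after seeing the data, as were the sums without HLF b and the CIPC limit without a library. That of bhlhe40 over NFIL3 was -4.76 to -4.26 with a library left out and -4.74 with the most abundant entries. Leaving out HLF b leaves this second ratio as it is by construction.

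Same-numbered libraries of the 2 groups did not deviate together (correlations of deviations -0.053, -0.037 and 0.011). The numbers thus gave no sign of a pairing, but such correlations cannot exclude one. With the replicate number as a block 882 entries were higher and 220 lower, of the members 2 and 6, and the log2 differences of the ratios were 2.63 and -4.44. The edgeR test was planned only if a check of units accepted the columns as counts. That check cannot read a table whose cells touch, so edgeR was not run. The columns held whole numbers and were fitted as counts by limma-voom. Low footprints limit TEF in control, and HLF b and dbpb in heat stress.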
